A study of Mus musculus with 12 samples.

Results

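Type I interferon-stimulated genes were followed gene by gene in CD8+ T cells from mouse tumors. The set was a fixed list of 53 genes that type I interferon is known to induce or that carry its signal, and a gene was kept when at least 3 libraries held 10 or more counts for it. All 53 passed, among 52636 gene identifiers in the count table, of which 14356 passed the same rule. The least covered value was 95 counts, for Ifnar1, and the highest was 16112 counts, for Ifi27l2a.

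The study sorted CD8+ T cells from AT3ova tumors, a mouse mammary carcinoma line made to express chicken ovalbumin, by the GFP of A2AR eGFP reporter mice, and it asked how cells that express the adenosine receptor encoded by Adora2a differ from those that do not. All libraries, GFP- ones included, came from female mice on a C57BL/6 background that carry the transgene Tg(Adora2a-EGFP)EP141Gsat, in which EGFP sits at the start codon of Adora2a on a bacterial artificial chromosome, so GFP reports the activity of that transgene. The age of the mice was given as a range for all experiments and not per library. Tumors were grown from 500000 injected cells and taken at day 21, and the anti-PD-L1 mice had received an antibody against the ligand of PD-1 at days 14 and 18 while the non-treated mice had received none. The 12 libraries fall into 4 groups of 3, non-treated GFP- (KT14, KT16, KT18), non-treated GFP+ (KT13, KT15, KT17), anti-PD-L1 GFP- (KT20, KT22, KT24) and anti-PD-L1 GFP+ (KT19, KT21, KT23), where KT13 to KT24 are library codes. Each library was pooled from 3 mice, which hides the spread between mice, and the labels pair no GFP+ with a GFP- library. In such bulk libraries fewer cells that express a gene and less RNA per cell cannot be told apart.

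Type I interferons bind the receptor pair IFNAR1 and IFNAR2, whose kinases pass the signal on to a transcription factor complex that holds STAT2 and IRF9. This complex enters the nucleus and binds the interferon-stimulated response element in the promoters of antiviral genes, while gamma-activated sites are the elements through which interferon gamma acts. In T cells the pathway is known both as a signal that helps priming and, when it persists, as one linked to exhaustion.

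A short letter pattern of the response element can be read in the promoters of several members whose levels are described here. A promoter sequence was at hand for 42 of the 53 genes in the RefSeq table of build GRCm38.p6, which gives 250 bases before to 50 bases after each annotated start. The motif GAAA, 2 bases of any kind and GAAA again, read on either strand (TTTC, 2 bases and TTTC on the other), occurred in the promoters of 17 of these 42 genes (40.5%) and of 1079 of all 27025 genes in the table (3.99%). Matches may overlap each other, and they are a description of the sequence, not of binding. The following stretches are read 5′ to 3′ on the strand of each gene, with the matches in capitals, for members with the smallest p-values in their role group and for Stat2 and Bst2.
Isg15: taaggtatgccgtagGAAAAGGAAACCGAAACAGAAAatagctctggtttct
Ifit3: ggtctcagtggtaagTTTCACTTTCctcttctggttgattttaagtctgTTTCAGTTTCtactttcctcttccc
Ifit1bl1: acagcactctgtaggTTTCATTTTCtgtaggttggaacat
Slfn5: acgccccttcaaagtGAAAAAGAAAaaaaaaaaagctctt
Stat2: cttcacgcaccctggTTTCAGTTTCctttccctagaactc
Bst2: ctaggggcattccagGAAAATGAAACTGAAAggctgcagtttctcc
The stretch of Isg15 lies on the minus strand at chr4:156200860-156200911 and holds 3 overlapping matches, the first of them at position -78 from the start site. That of Ifit3 is on the plus strand at chr19:34583358-34583431 with 2 matches, and the promoter of Ifit3b holds the same 74 bases at chr19:34607754-34607827. The other stretches lie at chr19:34602048-34602087 for Ifit1bl1 (minus strand, 1 of its annotated starts), chr11:82951932-82951971 for Slfn5 (plus), chr10:128270261-128270300 for Stat2 (plus) and chr8:71537572-71537617 for Bst2 (minus). The match of Slfn5 runs on into a stretch of A. Ifit1, Oas1a, Oas3, Rsad2, Ifih1, Eif2ak2, Slfn8, Phf11b, Trim30a and Ifi203 held the motif as well. In the table but without these letters in the window were, among the members described below in every library, Irf7, Irf9, Irf1, Oasl1, Oasl2, Ifi44, Herc6, Slfn1 and Sp100.

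The gamma-activated site TTCNNNGAA, which reads the same on both strands, occurred in 11 of the 42 promoters (26.2%) and in 2582 of the 27025 (9.55%). Its match in Irf1, shown because Irf1 is a classical target of interferon gamma, lies at position -90 on the plus strand, at chr11:53769909-53769947.
Irf1: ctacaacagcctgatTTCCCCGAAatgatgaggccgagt
Many members are neighbours in the GENCODE vM21 annotation of GRCm38. The IFIT genes lie on chromosome 19 from Ifit2 (start 34550694) to Ifit1 (end 34650009), and the Schlafen genes on chromosome 11 from Slfn5 (start 82951349) to Slfn1 (end 83122670). Oas2, Oas3 and Oas1a are neighbours on chromosome 5, Oasl2 (start 114896936) and Oasl1 (end 114937915) share another place on it, and Parp14, Dtx3l and Parp9 lie together on chromosome 16. Copies can share reads: of the 75-base words in the last 400 bases of each transcript, 29.4% were shared with another gene for Oas1a (Oas1g), 27.6% for Herc6 (Gm45193), 27.3% for Phf11b (Phf11a, Phf11c and Phf11d), 22.7% for Trim30a (Trim30d), 19.4% for Ifnar2 (Gm21970), 16.4% for Slfn8 (Slfn9 and Slfn10-ps) and 12.9% for Ifit3 (Ifit3b). The split of counts between these copies is uncertain.

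The libraries held from 11292699 to 19023900 counted reads. Adora2a lay between 60.2 and 111 CPM (counts scaled to library size) in the GFP+ libraries and between 19.7 and 34.6 CPM in the GFP- libraries, so the sort was visible without overlap. Across genes, which are not independent replicates, KT13 and KT21 had median Spearman correlations with the other libraries of 0.941 and 0.935, against at least 0.967 for the other 10, and the comparisons were made with all 12 libraries and again without these 2, which leaves 2 GFP+ libraries per treatment. The 9 CD8 T cell markers summed to between 4921 and 7615 CPM, and 12 of 12 macrophage and monocyte markers were detected, with sums between 81.1 and 296 CPM.

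Together the members had their highest mean level in non-treated GFP- cells, at 8934 ± 371 CPM (SD, n = 3), and 7857 ± 195 CPM in GFP+ cells without treatment. With anti-PD-L1 the means were 8383 ± 255 CPM in GFP- and 7582 ± 539 CPM in GFP+ cells (SD, n = 3 each). Summed over the 53 genes, the non-treated GFP- libraries held 8914, 8574 and 9314 CPM and the non-treated GFP+ libraries 7820 (KT13), 7684 and 8068 CPM. After anti-PD-L1 the sums were 8096, 8585 and 8468 CPM in GFP- libraries and 8205 (KT21), 7255 and 7287 CPM in GFP+ libraries. Non-treated GFP+ libraries were all below non-treated GFP- libraries, and anti-PD-L1 GFP+ libraries overlapped the GFP- ones through KT21 alone. The macrophage and monocyte markers summed to between 158 and 233 CPM in non-treated GFP-, 212 and 296 CPM in non-treated GFP+, 81.1 and 136 CPM in anti-PD-L1 GFP- and 89.4 and 176 CPM in anti-PD-L1 GFP+ libraries. Their ranges were lower under anti-PD-L1 in both gates and overlapped between the gates, no marker of that list was at 0 in every library, and their part in the levels of the members was not tested. The CD8 T cell markers of non-treated libraries summed to between 4921 and 5340 CPM in GFP+ and between 5889 and 6052 CPM in GFP- libraries, and their part in the lower sum of the members there was not tested either. Of the 3 NK cell markers Klrb1c was higher in GFP+ cells without overlap, at 47.0 to 51.3 CPM against 15.4 to 30.3 CPM without treatment and at 37.99 to 44.5 CPM against 13.8 to 18.1 CPM with anti-PD-L1. Ncr1 was higher without overlap with anti-PD-L1 alone, at 3.54 to 5.31 CPM against 1.21 to 2.72 CPM, and Klre1 overlapped in both. The CD4 T cell markers Cd4 and Foxp3 summed to 6.89 to 15.3 CPM in GFP+ and 15.9 to 24.9 CPM in GFP- libraries with anti-PD-L1, without overlap. Without treatment they summed to 11.2 to 22.5 CPM in GFP+ and 15.1 to 23.9 CPM in GFP- libraries, which overlap. Almost all of each sum was Foxp3, while Cd4 held at most 0.919 CPM in any library (KT18). With anti-PD-L1 Cd4 held 0.451 CPM in KT19 and 0.222 CPM in KT23, both GFP+, and 0 CPM in the other libraries. The part of these genes in the levels of the members was not tested.

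**Figure D1:**
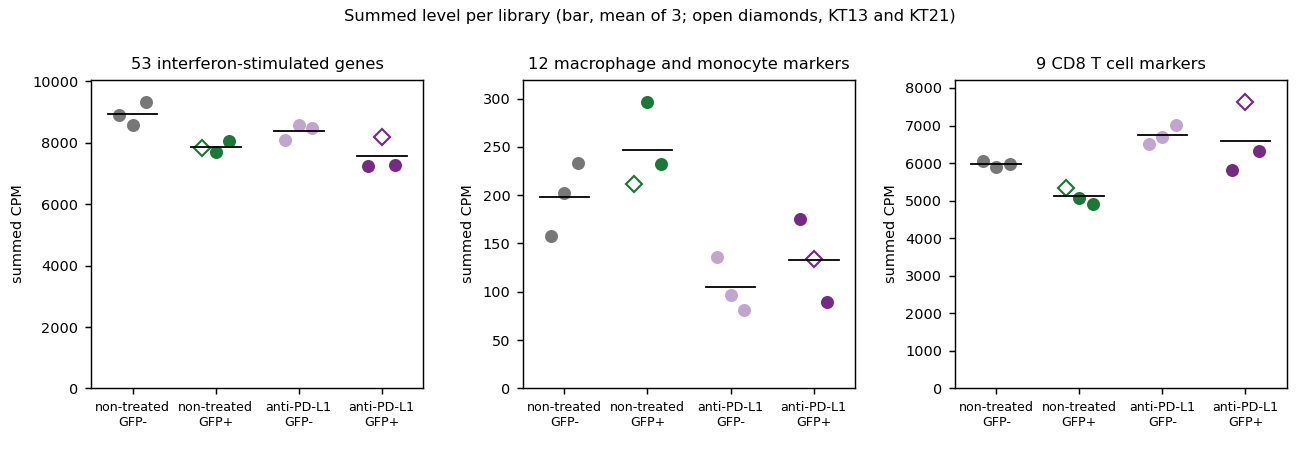
Summed CPM per library of the 53 interferon-stimulated genes, of 12 macrophage and monocyte markers and of 9 CD8 T cell markers, by group, with the mean of 3 libraries as a bar and KT13 and KT21 as open diamonds. The members sum to between 7255 and 9314 CPM, with the highest mean in non-treated GFP- cells, while the macrophage and monocyte markers reach at most 176 CPM in anti-PD-L1 libraries.

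Single members moved more between libraries than their sum did. The highest library of a member held between 1.29 (Zbp1) and 4.54 (Isg20) times its lowest, with the low end of Isg20 set by KT13 at 131 CPM and KT21 at 213 CPM against at least 390 CPM in the other 10. KT13 was above the range of those 10 libraries for 16 members, below it for 15 and within it for 22, and KT21 was above it for 10 and below it for 10. KT23, an anti-PD-L1 GFP+ library, was the lowest of the 12 for 15 members (28.3%), against 6.36% of all genes tested. KT14, KT16 and KT18, the non-treated GFP- libraries, were each the lowest for 0 members, against 7.95%, 4.08% and 4.77% of all genes. They were the highest for 9, 9 and 7 members (16.98%, 16.98% and 13.2%), against 8.16%, 5.29% and 5.92% of all genes. KT20 and KT22, of the anti-PD-L1 GFP- group, were also the lowest for 0 members (4.90% and 4.16% of all genes), and KT19 was the lowest for 9 (16.98%, against 5.52% of all genes). KT13 was the highest for 14 members (26.4%, against 16.8% of all genes) and the lowest for 13 (24.5%, against 13.96% of all genes). For KT21 both shares were under those of all genes. It was the highest for 7 members (13.2%, against 16.45% of all genes) and the lowest for 5 (9.43%, against 18.4% of all genes).

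**Figure D2:**
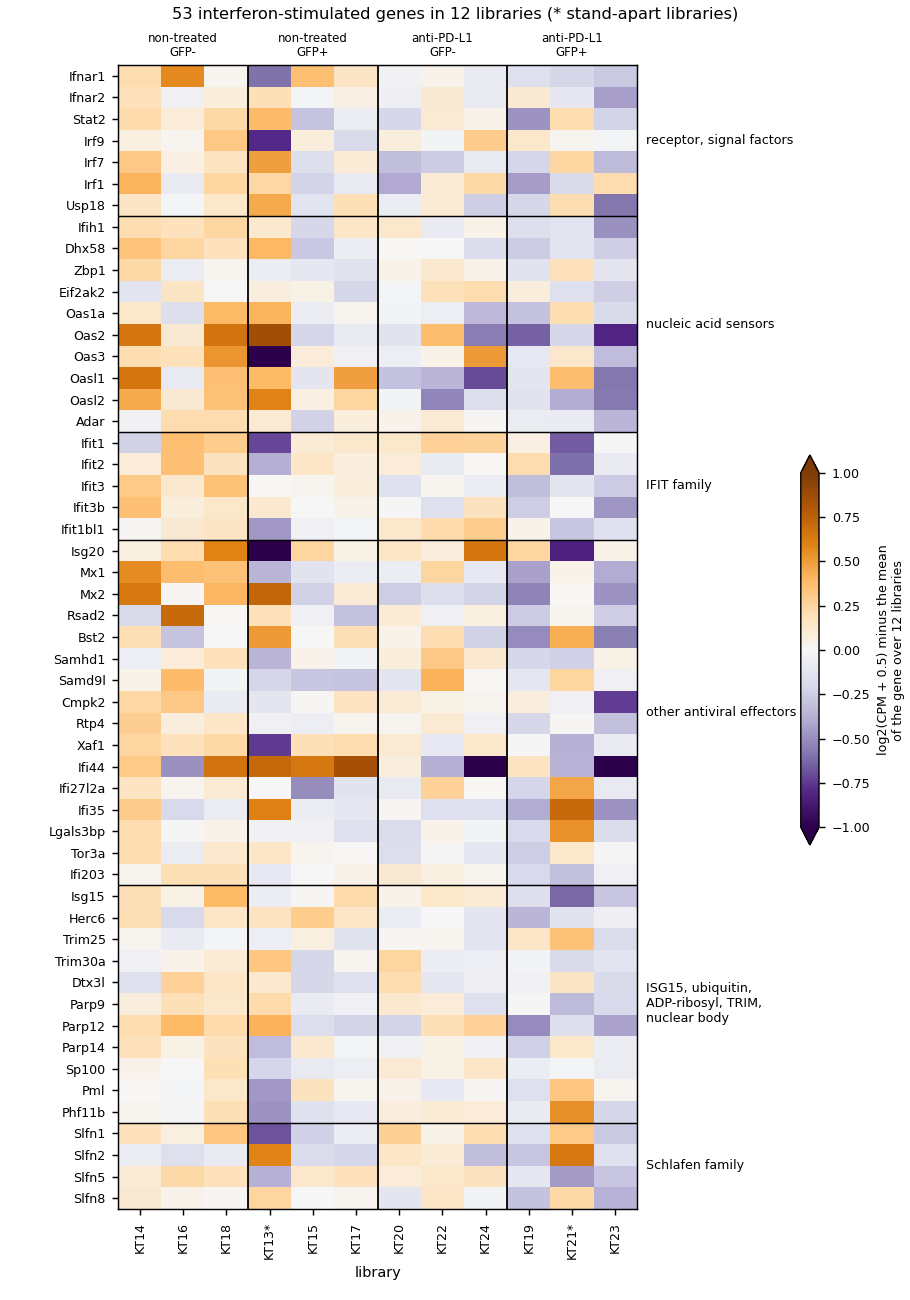
Heatmap of the 53 members (rows, by role) in the 12 libraries (columns, by group), coloured by log2(CPM + 0.5) minus the mean of the gene over the libraries, with colours cut at 1 in either direction. Non-treated GFP- libraries are mostly above the mean of a gene, KT23 and KT19 mostly below it, and the starred libraries KT13 and KT21 are high for some members and low for others.

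In non-treated tumors most members were somewhat lower in GFP+ than in GFP- cells, and none passed the test. With all 12 libraries 43 of 53 log2 fold changes were below 0, against 49.7% of all genes tested, and the median was -0.17 (that of all genes was 0.00). The members called at an adjusted p under 0.05 (edgeR quasi-likelihood test, Benjamini-Hochberg) numbered 0, where 0.00706% of all genes were called, and DESeq2 on the same libraries called 0 as well (0.374% of all genes). At an unadjusted p under 0.05 there were 4 members, Mx1, Slfn1, Samd9l and Oas3, all lower, to be read against 2.84% of all genes lower and 3.21% higher. Oas3 held 32.4 CPM in KT13, against 77.6 and 70.7 CPM in the other non-treated GFP+ libraries. The GFP+ libraries lay entirely below the GFP- libraries for 12 members and above for 0, where 6.63% of all genes were lower and 6.19% higher in that sense. Without KT13 and KT21, 49 members were below 0 with a median of -0.15, 0 were called (0.339% of all genes), 10 were lower at an unadjusted p under 0.05 (5.17% of all genes lower, 4.06% higher) and 22 were lower without overlap (12.9% of all genes lower, 12.3% higher).

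After anti-PD-L1 the comparison of GFP+ with GFP- cells rests on separate libraries. Of the 53 members 41 were below 0 (49.9% of all genes), with a median of -0.15 and 0 called by edgeR (0.0282% of all genes) and by DESeq2 (0.332% of all genes). Isg15, Slfn5, Ifit1bl1 and Parp12 were lower at an unadjusted p under 0.05 (1.69% of all genes lower, 2.38% higher), and 10 members were lower without overlap (5.33% of all genes lower, 5.31% higher). Without KT13 and KT21, 49 members were below 0 with a median of -0.20, 0 were called (0.17% of all genes), 17 were lower at an unadjusted p under 0.05 (2.73% of all genes lower, 2.61% higher) and 29 were lower without overlap (10.6% of all genes lower, 11.4% higher). Leaving out KT23 alone in place of these took the median to -0.10. These GFP+ and GFP- comparisons share no library. With all 12 libraries 34 of 53 members were below 0 in both, against 4265 of 14173 genes, and Ifih1, Ifit1bl1 and Sp100 were lower without overlap in both, as were 146 of the 14173 genes. With KT13 and KT21 left out, 46 members were below 0 in both, against 4081 of 14747 genes, and 16 were lower without overlap in both, as were 371 of those genes. The 3 members above 0 in both were Ifi35, Ifi44 and Slfn2, of which Ifi44 alone was above 0 in both without KT13 and KT21.

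Anti-PD-L1 was set against no treatment within each GFP gate. In GFP+ cells 37 of 53 members were below 0 (50.8% of all genes), with a median of -0.13, 0 called by edgeR (0.0141% of all genes), 6 lower at an unadjusted p under 0.05 (3.61% of all genes lower, 3.13% higher) and 5 lower without overlap (5.67% of all genes). Samd9l, a factor that restrains poxviruses and cell growth, was the 1 member higher without overlap (4.66% of all genes), at 0.30 ± 0.18 (SE) on the log2 scale. Without KT13 and KT21 these counts were 44 below 0, a median of -0.16, 0 called (0.563% of all genes), 14 lower at an unadjusted p under 0.05 (3.99% of all genes lower, 4.56% higher) and 26 lower without overlap (19.6% of all genes lower, 19.5% higher). In GFP- cells 42 were below 0 (50.8% of all genes), with a median of -0.12, 0 called (0% of all genes), 5 lower at an unadjusted p under 0.05 (2.16% of all genes lower, 1.28% higher) and 10 lower without overlap (6.26% of all genes lower, 6.08% higher). The fit without KT13 and KT21 kept all GFP- libraries and gave 41 below 0, 0 called (0.373% of all genes), 9 lower at an unadjusted p under 0.05 (4.05% of all genes lower, 3.17% higher) and 10 lower without overlap (6.24% of all genes lower, 5.92% higher). DESeq2 on all 12 libraries called 0 members in either gate, where it called 0.656% of all genes in GFP+ and 0.233% in GFP- cells. Each of these comparisons shares its groups with the comparisons of GFP+ and GFP- cells, so they are not separate evidence. Ifit3 and Oasl2 were lower without overlap in both gates, which share no library with each other, as were 136 of 14173 genes. Without KT13 and KT21, 36 members were below 0 in both gates and 4 above 0 in both, against 4309 and 4198 of 14747 genes. In that fit Ifit3, Irf7, Mx1, Mx2, Oasl2 and Xaf1 were lower without overlap in both, as were 298 of those genes. The macrophage and monocyte markers were lower in the same comparisons, as given above. The CD8 T cell markers were higher with anti-PD-L1 without overlap, at 6517 to 7020 CPM against 5889 to 6052 CPM in GFP- and at 5827 to 7615 CPM against 4921 to 5340 CPM in GFP+ libraries. Markers of dendritic and antigen presenting cells summed to 135 to 215 CPM with and 193 to 275 CPM without anti-PD-L1 in GFP- libraries, and to 134 to 257 CPM with and 250 to 354 CPM without it in GFP+ libraries, which overlap. The summed tumor epithelium markers were mostly Cdh1, at 126 to 178 CPM in anti-PD-L1 GFP+, 178 to 272 CPM in non-treated GFP+ and 191 to 296 CPM in anti-PD-L1 GFP- libraries, while Krt8, Krt18 and Epcam overlapped between the gates under anti-PD-L1. Klre1 was higher with anti-PD-L1 in GFP- libraries without overlap, at 154 to 188.5 CPM against 92.9 to 141 CPM. It overlapped in GFP+ libraries. Krt8 was lower with anti-PD-L1 in GFP+ libraries without overlap, at 0.59 to 2.83 CPM against 3.12 to 6.21 CPM. It overlapped in GFP- libraries. The part of these markers in the members' levels was not tested.

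**Figure D3:**
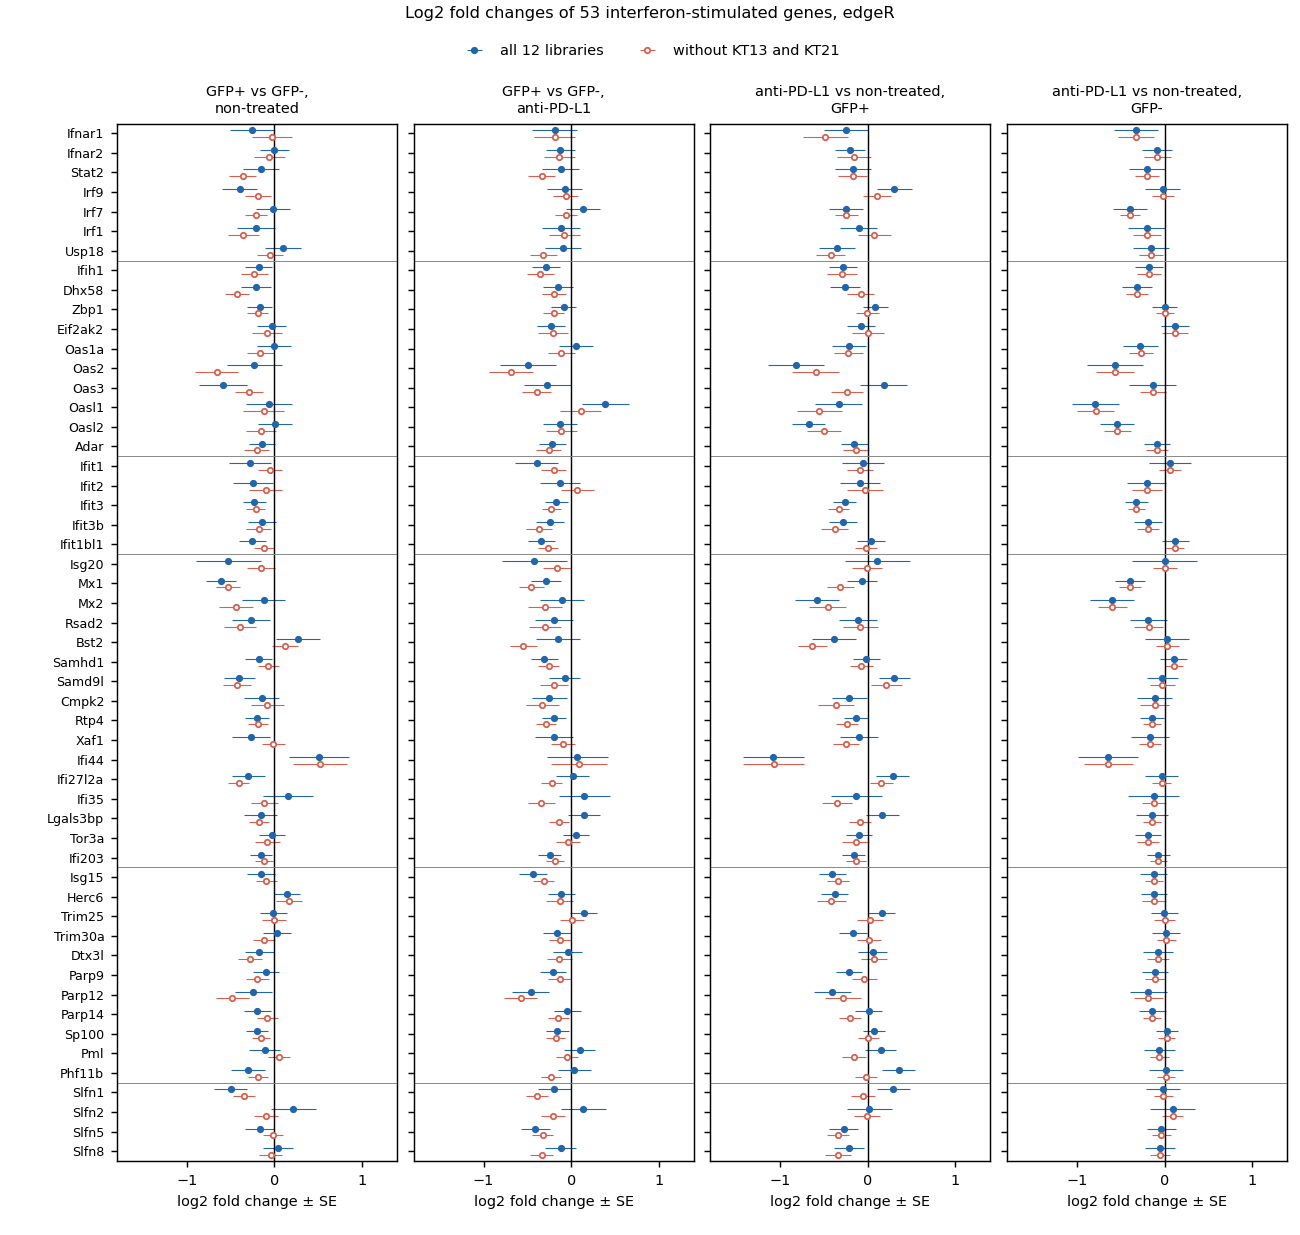
Log2 fold change with its standard error for each of the 53 members (rows, by role) in the 4 comparisons, with all 12 libraries (filled) and without KT13 and KT21 (open). Most points lie to the left of 0 in each panel, and the farthest is Ifi44 at -1.08 for anti-PD-L1 in GFP+ cells.

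The effect of anti-PD-L1 was also compared between GFP+ and GFP- cells by the interaction term. Called members numbered 0 of 53 (0% of all genes) and 0 had an unadjusted p under 0.05 (2.08% of all genes), with a median of 0.03. In the fit without KT13 and KT21 the median was on the other side of 0, at -0.04 with 34 of 53 below 0, 0 were called again (0% of all genes) and Bst2, a membrane protein that tethers budding virions, alone had an unadjusted p under 0.05 (4.29% of all genes), with -0.67 ± 0.21 (SE) on the log2 scale and an edgeR adjusted p of 1. Over the 53 members the median SE was 0.19 in the single comparisons and 0.26 for the interaction, which bounds what could be resolved.

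The receptor chains and the factors that carry the signal number 7, and none passed the test. In non-treated cells 5 of the 7 were below 0 for GFP+ against GFP- (median -0.15), in anti-PD-L1 cells 6 of 7 (median -0.12), and for anti-PD-L1 against no treatment 6 of 7 in GFP+ and 7 of 7 in GFP- cells (medians -0.21 and -0.20). Irf7, the interferon regulatory factor that amplifies the response, stood at 295, 247 and 265 CPM in non-treated GFP- and at 191, 198 and 224 CPM in anti-PD-L1 GFP- libraries. All anti-PD-L1 GFP- libraries were below all non-treated ones, with a log2 fold change of -0.40 ± 0.19 (SE) and an edgeR adjusted p of 1. When KT13 and KT21 were left out, edgeR gave an adjusted p of 0.211 where DESeq2 gave 0.0403 and called 0.617% of all genes. The GFP+ libraries held 333 (KT13), 212 and 253 CPM of Irf7 without treatment and 281 (KT21), 204 and 188 CPM with it, which overlap through KT21. With KT13 and KT21 left out, its GFP+ means were 232 CPM without treatment and 196 CPM with it. These groups did not overlap, and 19.6% of all genes were lower in that sense. Irf9, the DNA-binding subunit of the complex that reads the response element, stood at 86.1, 83.7 and 103 CPM in non-treated GFP- and at 47.3 (KT13), 87.3 and 72.1 CPM in non-treated GFP+ libraries. The low value was that of KT13, and the log2 fold change of -0.40 ± 0.20 (edgeR adjusted p = 0.854) was -0.19 without KT13 and KT21.

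Irf1, a factor that gamma-activated sites control, was the member of this group with the most counts. It held 607, 430.4 and 542 CPM in non-treated GFP-, 540.2 (KT13), 391 and 430.3 CPM in non-treated GFP+, 345, 488 and 536 CPM in anti-PD-L1 GFP- and 400.2 (KT21), 335 and 529 CPM in anti-PD-L1 GFP+ libraries. The groups overlapped in all 4 comparisons, and its log2 fold changes lay between -0.21 and -0.11. Without KT13 the GFP+ libraries of non-treated mice lay just below the GFP- ones, at -0.36 ± 0.18 (edgeR adjusted p = 0.554 without KT13 and KT21). The receptor chains Ifnar1 and Ifnar2, Stat2 and Usp18, the protease that takes ISG15 off proteins and brakes the receptor, had log2 fold changes between -0.35 and 0.10 in the 4 comparisons. With all 12 libraries Ifnar1 alone of these was lower without overlap, in anti-PD-L1 GFP+ against GFP- cells. When KT13 and KT21 were left out, Stat2 was lower in GFP+ cells without overlap in both treatments, at -0.36 ± 0.15 and -0.34 ± 0.16 (edgeR adjusted p = 0.472 and 0.895), and Ifnar1 stood at -0.49 ± 0.25 for anti-PD-L1 in GFP+ cells (edgeR adjusted p = 0.627).

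Among the 10 sensors of foreign nucleic acid and their partners the oligoadenylate synthetase-like genes had the smallest p-values. Oasl2 held 68.6, 54.4 and 63.9 CPM in non-treated GFP- and 49.1, 34.6 and 44.5 CPM in anti-PD-L1 GFP- libraries. In GFP+ libraries it held 75.7 (KT13), 52.2 and 60.0 CPM without treatment and 38.3 (KT21), 45.6 and 33.5 CPM with it. In each gate every anti-PD-L1 library was below every non-treated one. The log2 fold change was -0.68 ± 0.19 in GFP+ cells (edgeR adjusted p = 0.381) and -0.54 ± 0.19 in GFP- cells (edgeR adjusted p = 1), and without KT13 and KT21 it was -0.50 and -0.54 (edgeR adjusted p = 0.409 and 0.242).

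Oasl1, which in mice restrains the translation of Irf7, held 39.3, 23.3 and 31.8 CPM in non-treated GFP- and 20.04, 19.4 and 15.1 CPM in anti-PD-L1 GFP- libraries. These groups did not overlap, and the log2 fold change was -0.79 ± 0.27 (edgeR adjusted p = 1, and 0.166 without KT13 and KT21). Its GFP+ libraries held 32.6 (KT13), 22.8 and 34.9 CPM without treatment and 32.3 (KT21), 22.8 and 16.4 CPM with it, and overlapped. Zbp1, a sensor of left-handed nucleic acid that can start necroptosis, had the narrowest range over the libraries. It held 183, 148 and 158 CPM in non-treated GFP-, 149 (KT13), 145 and 142 CPM in non-treated GFP+, 161, 169.7 and 160.1 CPM in anti-PD-L1 GFP- and 177 (KT21), 142 and 143 CPM in anti-PD-L1 GFP+ libraries. The GFP+ values lay below the GFP- values in both treatments once KT13 and KT21 were left out, with log2 fold changes of -0.19 and -0.20 (edgeR adjusted p = 0.671 and 0.983).

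For GFP+ against GFP- cells 9 of the 10 were below 0 without treatment and 8 of the 10 with it, and for anti-PD-L1 8 of the 10 were below 0 in either gate. Ifih1, the sensor MDA5 for long double-stranded RNA, was lower in GFP+ cells without overlap in both treatments, with log2 fold changes of -0.18 ± 0.16 and -0.29 ± 0.16. Without treatment KT15 held 42.1 CPM, against 52.96 (KT13) and 53.9 CPM in the other GFP+ libraries. With anti-PD-L1 KT23 held 34.6 CPM, against 43.5 and 44.4 (KT21) CPM. The GFP- libraries held 55.1 to 57.8 CPM without treatment and 45.9 to 53.4 CPM with it. Oas2, a synthetase of the messenger that activates RNase L, turned on KT13. It held 37.1 CPM in KT13 but 17.3 and 18.9 CPM in the other non-treated GFP+ libraries, against 31.9, 21.8 and 32.2 CPM in the non-treated GFP- ones, so that its log2 fold change was -0.23 with KT13 and KT21 and -0.66 without them (edgeR adjusted p = 0.961 and 0.367). Adar, the RNA-editing enzyme, and Eif2ak2, the kinase PKR that stops translation, had log2 fold changes between -0.23 and 0.12.

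The 5 IFIT genes encode proteins that bind viral RNA ends and hold back its translation. All 5 were below 0 for GFP+ against GFP- cells in both treatments (medians -0.24 in each), and 4 and 3 of the 5 were below 0 for anti-PD-L1 in GFP+ and GFP- cells. The fit without KT13 and KT21 gave a median of -0.12 for GFP without treatment, and 4 of 5 below 0 for GFP with anti-PD-L1 (median -0.23). Ifit3 held 414, 362 and 425 CPM in non-treated GFP- and 335 (KT13), 338 and 352 CPM in non-treated GFP+ libraries, and 302, 338 and 319 CPM in anti-PD-L1 GFP- and 308 (KT21), 268 and 278 CPM in anti-PD-L1 GFP+ libraries. Non-treated GFP- libraries were above the libraries of each other group. The log2 fold change of anti-PD-L1 was -0.32 ± 0.13 in GFP- and -0.26 ± 0.13 in GFP+ cells (edgeR adjusted p = 1 and 0.761, and 0.314 and 0.372 without KT13 and KT21).

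Ifit1bl1, a mouse relative of Ifit1, held 193, 206 and 212 CPM in non-treated GFP- and 139 (KT13), 185 and 189 CPM in non-treated GFP+ libraries. With anti-PD-L1 it held 208, 223 and 234 CPM in GFP- and 157 (KT21), 196 and 173 CPM in GFP+ libraries. The gates did not overlap in either treatment, with log2 fold changes of -0.25 ± 0.15 and -0.34 ± 0.16 (edgeR adjusted p = 0.881 and 0.993), and -0.12 and -0.27 without KT13 and KT21. Ifit1 and Ifit2 had their lowest values in KT13 and KT21. Ifit3b was below 0 in all 4 comparisons, and its own 3′ end shared 0.0% of its words with another gene.

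**Figure D4:**
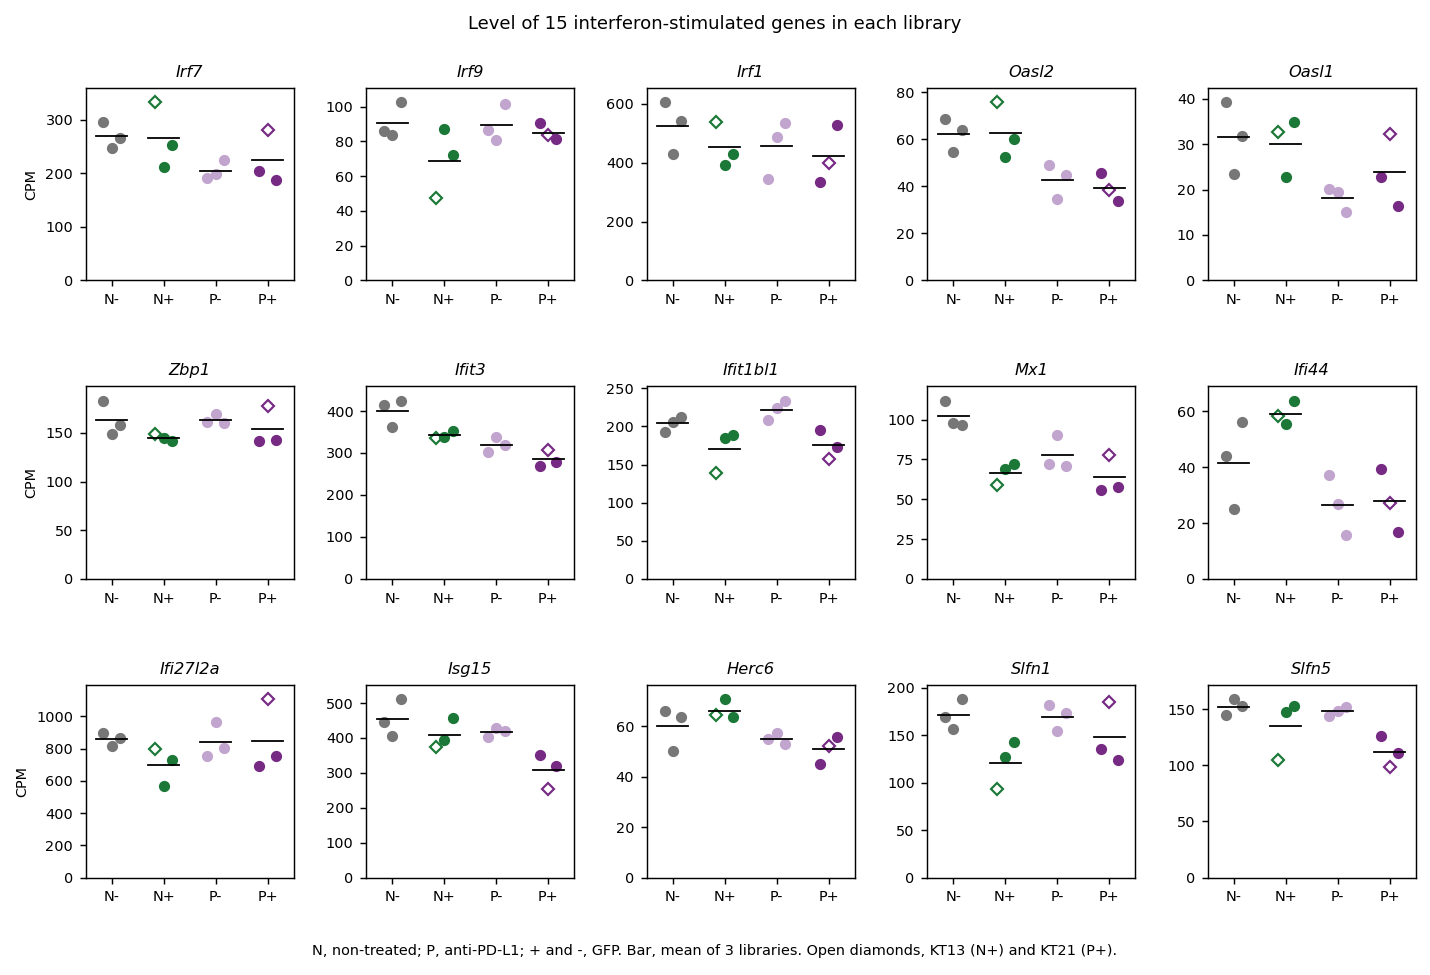
CPM of 15 members in each library for non-treated (N) and anti-PD-L1 (P) cells of the GFP- and GFP+ gates, with the mean of 3 libraries as a bar and KT13 and KT21 as open diamonds. Mx1 lies between 58.9 and 72.2 CPM in non-treated GFP+ and between 96.3 and 112 CPM in non-treated GFP- libraries, and Oasl2 reaches at most 49.1 CPM in anti-PD-L1 libraries.

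Among the 16 other antiviral effectors Mx1 had the smallest p-value for GFP. Mx1 encodes a dynamin-like GTPase that blocks influenza and related viruses, and C57BL/6 mice carry a disrupted allele of it, so that its transcript reports the response rather than a working protein. It held 112, 97.8 and 96.3 CPM in non-treated GFP- and 58.9 (KT13), 68.9 and 72.2 CPM in non-treated GFP+ libraries. The GFP+ libraries were all lower, with a log2 fold change of -0.61 ± 0.17 (edgeR adjusted p = 0.513). Without KT13 and KT21 it was -0.53 ± 0.14, and edgeR gave an adjusted p of 0.128 where DESeq2 gave 0.0283 and called 0.888% of all genes. After anti-PD-L1 Mx1 held 72.2, 90.3 and 70.6 CPM in GFP- and 78.0 (KT21), 55.8 and 57.4 CPM in GFP+ libraries, and these overlapped through KT21. The log2 fold changes of Mx1 for anti-PD-L1 were -0.39 ± 0.17 in GFP- cells, without overlap, and -0.07 ± 0.17 in GFP+ cells. The GFP+ value of Mx1 was -0.32 ± 0.15, also without overlap, when KT13 and KT21 were left out. Mx2 stood at -0.60 ± 0.25 in GFP- and -0.58 ± 0.25 in GFP+ cells. The GFP+ value of Mx2 includes KT13 at 48.1 CPM, against 24.4 and 30.7 CPM in the other non-treated GFP+ libraries. With KT13 and KT21 left out, its GFP+ means were 27.6 CPM without treatment and 20.04 CPM with it, without overlap.

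Ifi44, an interferon-induced protein of the cytoplasm, had the farthest log2 fold change of all members. It held 58.2 (KT13), 55.5 and 63.9 CPM in non-treated GFP+ and 27.4 (KT21), 39.4 and 16.96 CPM in anti-PD-L1 GFP+ libraries. All anti-PD-L1 libraries were lower, with a log2 fold change of -1.08 ± 0.35 (edgeR adjusted p = 0.471, and 0.27 without KT13 and KT21). Its call depended on the filter on low counts, since with no filter beyond 1 count in all libraries together the edgeR adjusted p was 0.00108 at a log2 fold change of -1.07, in a fit that called 0.466% of all genes. In GFP- libraries Ifi44 held 43.9, 25.0 and 56.2 CPM without treatment and 37.1, 27.0 and 15.8 CPM with it, and overlapped. For GFP+ against GFP- cells its log2 fold change was 0.51 ± 0.34 without treatment and 0.07 ± 0.35 with it, opposite in sign to the median of the members.

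Ifi27l2a, a small interferon-induced membrane protein, held 897, 818 and 863 CPM in non-treated GFP- and 797 (KT13), 566 and 729 CPM in non-treated GFP+ libraries, without overlap. The log2 fold change was -0.30 ± 0.19 (edgeR adjusted p = 0.883), and -0.41 ± 0.12 without KT13 and KT21 (edgeR adjusted p = 0.215). Leaving out KT15 alone took it to -0.17. After anti-PD-L1 it held 754, 964 and 802 CPM in GFP- and 1107 (KT21), 690.0 and 751 CPM in GFP+ libraries, where KT21 was the highest of all 12. Bst2, also known as tetherin, held 152 (KT13), 106 and 122 CPM in non-treated GFP+ and 144 (KT21), 74.3 and 72.4 CPM in anti-PD-L1 GFP+ libraries. With KT21 these overlapped (log2 fold change -0.39 ± 0.25, edgeR adjusted p = 0.876), and without KT13 and KT21 the value was -0.64 ± 0.17 (edgeR adjusted p = 0.102, while DESeq2 called it lower, with 0.963% of all genes called). Its GFP- libraries held 122, 86.8 and 106 CPM without treatment and 109, 122 and 90.4 CPM with it. Of the 16 effectors 13 were below 0 for GFP without treatment and 11 with it, and 12 and 13 for anti-PD-L1 in GFP+ and GFP- cells. The median of the effectors for anti-PD-L1 in GFP+ cells was -0.11, and -0.19 without KT13 and KT21.

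The 11 genes of ISG15 conjugation, ubiquitin and ADP-ribose transfer, TRIM proteins and nuclear bodies included no member that passed the test. Their medians were -0.15 and -0.11 for the gates without and with anti-PD-L1, and 0.01 and -0.08 for anti-PD-L1 in GFP+ and GFP- cells, where the first was -0.04 without KT13 and KT21. Isg15, a ubiquitin-like protein that is joined to other proteins and also secreted, held 446, 406 and 511 CPM in non-treated GFP- and 374 (KT13), 394 and 457 CPM in non-treated GFP+ libraries, which overlapped. In anti-PD-L1 libraries it held 402, 429 and 419.8 CPM in GFP- and 253 (KT21), 351 and 320.4 CPM in GFP+ cells. The anti-PD-L1 GFP+ libraries were below those of each other group. The log2 fold change was -0.44 ± 0.16 against anti-PD-L1 GFP- cells (edgeR adjusted p = 0.993) and -0.41 ± 0.16 against non-treated GFP+ cells (edgeR adjusted p = 0.609), and without KT13 and KT21 it was -0.31 and -0.34 (edgeR adjusted p = 0.712 and 0.393).

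Herc6, the main ligase that joins ISG15 to its targets in mice, held 64.4 (KT13), 70.8 and 63.7 CPM in non-treated GFP+ and 52.3 (KT21), 45.2 and 55.6 CPM in anti-PD-L1 GFP+ libraries. All anti-PD-L1 libraries were lower, with a log2 fold change of -0.38 ± 0.15 (edgeR adjusted p = 0.657, and 0.458 without KT13 and KT21). Its GFP- libraries held 66.3, 50.03 and 63.6 CPM without treatment and 54.8, 57.5 and 52.998 CPM with it, and overlapped. Sp100, a nuclear body protein, varied least within groups and was lower in GFP+ cells without overlap in both treatments. It held 351, 343 and 393 CPM in non-treated GFP- and 296 (KT13), 322 and 329 CPM in non-treated GFP+ libraries, then 370.5, 356 and 379 CPM in anti-PD-L1 GFP- and 338 (KT21), 328 and 325 CPM in anti-PD-L1 GFP+ libraries. Its log2 fold changes of -0.20 ± 0.13 and -0.16 ± 0.13 did not pass (edgeR adjusted p = 0.891 and 0.993).

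The 4 Schlafen genes belong to a family that restrains the growth and activation of T cells and the translation of some RNAs. Their medians were -0.06 and -0.16 for the gates without and with anti-PD-L1, and -0.10 and -0.03 for anti-PD-L1 in GFP+ and GFP- cells. Leaving out KT13 and KT21 took the median to -0.33 for the gates with anti-PD-L1 and to -0.20 for anti-PD-L1 in GFP+ cells, with 4 of 4 below 0 in each. Slfn1 held 169.5, 157 and 188 CPM in non-treated GFP- and 93.1 (KT13), 127 and 143 CPM in non-treated GFP+ libraries, without overlap. The log2 fold change was -0.50 ± 0.19 (edgeR adjusted p = 0.748), and -0.34 ± 0.13 without KT13 and KT21 (edgeR adjusted p = 0.364). After anti-PD-L1 it held 181, 154 and 173 CPM in GFP- and 185 (KT21), 135 and 124 CPM in GFP+ libraries, which overlapped through KT21.

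Slfn5 held 144, 149 and 152 CPM in anti-PD-L1 GFP- and 98.4 (KT21), 126 and 111 CPM in anti-PD-L1 GFP+ libraries. These did not overlap, with a log2 fold change of -0.41 ± 0.16 (edgeR adjusted p = 0.993) and -0.32 ± 0.12 without KT13 and KT21 (edgeR adjusted p = 0.673). In non-treated cells it held 144, 159 and 153 CPM in GFP- and 105 (KT13), 148 and 153 CPM in GFP+ libraries, and the gap there was that of KT13. Slfn2, whose loss in mice breaks T cell quiescence, went the other way in KT13 and KT21, at 197 and 204 CPM against 105 to 145 CPM in the other 10 libraries.

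The rest of the interferon pathway was read from 5 further lists of 75 tested genes, receptor kinases with signal factors and brakes, nucleic acid sensing, transcription factors, interferons with the gamma receptor, and further interferon-stimulated genes. With all 12 libraries 0 of the 75 were called in any of the 4 comparisons. The 46 further interferon-stimulated genes had medians of -0.21 and -0.11 for the gates without and with anti-PD-L1 and of -0.07 and -0.09 for anti-PD-L1 in GFP+ and GFP- cells, while the 12 nucleic acid sensing genes had medians between -0.018 and 0.021. The latter list moved to -0.16 for anti-PD-L1 in GFP+ cells, with 9 of the 12 below 0, once KT13 and KT21 were left out. Without KT13 and KT21 a single gene was called, for anti-PD-L1 in GFP+ cells, where 0.563% of all genes were called. Ifng, the type II interferon that activated T cells secrete, held 409.6 (KT13), 291 and 308 CPM in non-treated GFP+ and 499.7 (KT21), 464 and 507 CPM in anti-PD-L1 GFP+ libraries, and rose by 0.70 ± 0.13 on the log2 scale (edgeR adjusted p = 0.00883). With all 12 libraries its groups did not overlap either, and the value was 0.54 ± 0.16 (edgeR adjusted p = 0.426). Its GFP- libraries held 501, 398 and 380 CPM without treatment and 508, 525 and 470.0 CPM with it, at 0.23 ± 0.16 (edgeR adjusted p = 1).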

How the data were processed

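QuantSeq 3′ libraries of 12 pools of sorted CD8+ T cells were analysed. The authors deposited raw read counts per Ensembl gene and library, made from 75 bp reads with cutadapt, HISAT2 on mm10 and featureCounts (cutadapt 1.7 and Subread 1.6.4 per the submitters' processing notes, where the study's methods name other versions). The Ensembl release, strand setting and treatment of multimapped reads are not given in the sources used here. Symbols came from GENCODE vM21 and matched 52403 identifiers.

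Counts were scaled by TMM, filtered with filterByExpr (14173 genes, or 14747 without KT13 and KT21) and compared with edgeR 4.0.16's quasi-likelihood test (R 4.3.3) in 1 fit over the 4 groups without covariates, as log2 fold change ± SE, with Benjamini-Hochberg adjusted p over all genes and calls under 0.05. CPM are TMM-scaled. The labels name no batch. Nothing states that pools of a group came from separate experiments, so p-values measure the spread between these pools. Reads carry no molecular identifiers, so the precision that depth gives covers counting only. No pair of libraries within a group was a copy (chi-square per degree of freedom at least 11.9 over 12 pairs).

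The members, the lists, the role groups and the set without KT13 and KT21 were chosen with earlier results of these data known. Given in every library were members called by edgeR in any comparison (there were 0) and, in each role group, the 2 with the smallest unadjusted p over 12 libraries and the one with the highest mean CPM, 15 in all. Values of Bst2, Oas2, Sp100, Isg20, Slfn2, Ifih1 and Samd9l were added after their values were seen. Values printed for further members, such as Mx2, Stat2 and Ifnar1, were not chosen by this rule either. Alternatives were DESeq2 1.42.0, limma 3.58.1 voom with quality weights, upper-quartile scaling, other count filters, 2-group fits and leaving out each library. The test was tried on simulated data first.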

Additional observations from a re-analysis of the deposited data

How the results depend on the processing

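The count of called members was 0 with edgeR, DESeq2, voom with quality weights, upper-quartile scaling, 2-group fits, a filter of 10 counts in every library and each library left out in turn, in all 4 comparisons and both directions. It was 1 in 4 cases. With no filter beyond 1 count, Ifi44 was called lower for anti-PD-L1 in GFP+ cells. With DESeq2 without KT13 and KT21, an alternative chosen after seeing the data, 1 member was called lower for GFP in non-treated cells (Mx1), 1 for anti-PD-L1 in GFP+ cells (Bst2) and 1 for anti-PD-L1 in GFP- cells (Irf7, adjusted p = 0.0403), and the median of the interaction was -0.050. In the same order these fits called 0.466%, 0.888%, 0.963% and 0.617% of all genes. The causes were not tested. With each library left out in turn, the medians ran from -0.18 to -0.13 and from -0.20 to -0.10 for GFP in non-treated and anti-PD-L1 cells, from -0.19 to -0.09 and from -0.14 to -0.10 for anti-PD-L1 in GFP+ and GFP- cells, and from -0.03 to 0.09 for the interaction. The number of members at an unadjusted p under 0.05 moved more in these edgeR fits. For GFP it ran from 2 (without KT16, KT18 or KT23) to 6 (without KT21) in non-treated cells. In anti-PD-L1 cells it ran from 1 (without KT22 or KT24) to 7 (without KT21). For anti-PD-L1 it ran from 3 (without KT19) to 14 (without KT21) in GFP+ cells. In GFP- cells it ran from 0 (without KT14) to 8 (without KT13). The genes called among all genes moved as well. For anti-PD-L1 in GFP+ cells they numbered 34 of 14979 without KT21, against 2 of 14173 with all 12 libraries. In GFP- cells they numbered 23 of 14904 without KT13, against 0 with all 12 libraries. The share of all genes at an unadjusted p under 0.05 was not taken in these fits. These counts are therefore not read as a result about the members. The log2 ratio of the summed CPM for anti-PD-L1 in GFP+ cells was -0.051, nearer to 0 than the difference of mean log2 values (-0.14), and it was -0.12 without KT13 and KT21, a value added after seeing the data. The 15 members given in every library were followed in the comparison that named them, and the 3 named by their level (Irf1, Zbp1, Ifi27l2a) in the one with their smallest p, GFP without treatment. Their log2 fold changes kept their direction in each of these settings. Leaving out 1 library moved 4 of them by over 1.5 times, all for GFP without treatment, Irf9 to -0.60 (without KT15) or -0.19 (without KT13), Irf1 to -0.36, -0.35, -0.12 or -0.10 (without KT13, KT16, KT15 or KT14), Zbp1 to -0.080 (without KT14) and Ifi27l2a to -0.17 (without KT15). No paired analysis was made, because the labels give no replicate numbers that groups share. The library codes alternate between the gates, but no source says that neighbouring codes share mice, so neighbours were not fitted as pairs.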
